A study of Mus musculus with 48 samples.

Results

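The annexins Anxa1, Anxa2, Anxa3, Anxa4 and Anxa5 and the S100 genes S100a4, S100a6, S100a10, S100a11 and S100b were followed through a time course of permanent focal ischemia in mouse brain. These 10 genes were chosen by name, with earlier results of these data known, and without S100a8 and S100a9, which mark granulocytes. All 10 were among the 19970 genes tested of 46983 listed. Bulk 3′ end RNA sequencing covered 48 libraries from male C57Black/6 mice aged 3 months. In the MCAO groups the middle cerebral artery was coagulated with bipolar forceps and cut, sham mice had the operation without coagulation, and control tissue was intact cortex from mice with no operation. Samples were taken at 3 h, 12 h, 24 h, day 3 and day 7. The control group and every sham group held 4 libraries, MCAO at 24 h held 4 and the other MCAO groups held 5. The methods name the injured cortical region, with affected and unaffected tissue together, while other text of the study speaks of most of a hemisphere, so the extent of tissue behind a level is uncertain. In such tissue, a change in the number of cells of a type and a change in RNA per cell cannot be told apart.

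Annexins are cytosolic proteins that bind phospholipid membranes when calcium rises, and they take part in membrane repair, vesicle traffic and the exposure of signals on dying cells. S100 proteins are small EF-hand proteins, most of which bind calcium, and several dock onto annexins: S100a10 pairs with Anxa2 at the plasma membrane, and S100a11 binds Anxa1 and Anxa2. In intact brain S100b is a widely used marker of astrocytes, while S100a4 and S100a6 are better known from motile, dividing or injured cells.

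S100a4, S100a6, S100a11 and Anxa2 were all called higher at day 3, as set out further on. At 24 h and day 7 every MCAO library lay above every sham library of the same time for each of these genes. The same held for 3.73% of all genes at 24 h and 5.38% at day 7. MCAO and sham overlapped at 3 h for each of these genes, at 12 h for Anxa2 and at day 3 for S100a11. For each of these genes, the sequence just before its RefSeq start is shown as a description. They are 4 of the 6 genes called at day 3, picked after their values were seen. The runs of S100a6, S100a11 and Anxa2 reach past the gene starts of the Gencode annotation, which gave the gene coordinates used further on. Each run holds 250 bases on the plus strand of GRCm38.p6, 5′ to 3′. Capitals mark matches, on either strand, to 6 motifs, where N is any base. AP-1 was searched as TGANTCA. STAT was TTCNNNGAA and CRE was TGACGTCA. NF-kB was searched as GGANNTTCC. The SP1 motif was GGGCGG, and for TATA the letters TATAAA were used.
S100a4, chr3:90603520-90603769: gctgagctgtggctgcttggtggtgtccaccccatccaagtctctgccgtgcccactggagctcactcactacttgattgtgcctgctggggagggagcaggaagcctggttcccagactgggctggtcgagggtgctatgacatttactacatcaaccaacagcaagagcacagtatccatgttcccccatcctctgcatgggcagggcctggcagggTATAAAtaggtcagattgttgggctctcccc
S100a6, chr3:90612644-90612893: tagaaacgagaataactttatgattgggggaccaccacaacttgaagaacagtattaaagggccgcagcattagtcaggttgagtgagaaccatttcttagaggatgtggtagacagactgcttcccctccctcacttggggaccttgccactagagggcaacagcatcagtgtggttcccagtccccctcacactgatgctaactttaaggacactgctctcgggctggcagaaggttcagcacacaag
S100a11, chr3:93520246-93520495: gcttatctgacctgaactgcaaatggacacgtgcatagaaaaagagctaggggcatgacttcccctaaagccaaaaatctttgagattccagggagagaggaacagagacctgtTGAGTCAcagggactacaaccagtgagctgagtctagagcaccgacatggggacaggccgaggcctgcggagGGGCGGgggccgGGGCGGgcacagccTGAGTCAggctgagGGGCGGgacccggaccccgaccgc
Anxa2, chr9:69453433-69453682: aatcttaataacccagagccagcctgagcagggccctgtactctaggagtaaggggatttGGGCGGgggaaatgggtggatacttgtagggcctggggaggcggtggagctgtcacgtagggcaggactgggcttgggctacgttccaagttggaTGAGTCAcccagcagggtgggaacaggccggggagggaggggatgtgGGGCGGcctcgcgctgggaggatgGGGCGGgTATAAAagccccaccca
The AP-1 letters stood at bases -136 to -130 and -38 to -32 before the S100a11 start and at -95 to -89 before the Anxa2 start, and 7.81% of 32851 RefSeq windows of 300 bases held them. SP1 letters, present in 35.7% of windows, matched 3 times in S100a11 and 3 times in Anxa2. TATA letters, present in 13.6% of windows, stood at -31 to -26 in S100a4 and at -17 to -12 in Anxa2. The S100a6 run held none of the 6 motifs. STAT letters (8.3% of windows), CRE letters (1.79%) and NF-kB letters (4.26%) were not found in these 4 runs. Windows of Anxa4, also called at day 3, are not printed. Its window at chr6:86793535-86793834 held NF-kB letters at -54 to -46 and SP1 letters at 6 to 11. Its window at chr6:86775065-86775364 held none of the 6 motifs. The window of Anxa1, which was not called over sham, held NF-kB letters at -196 to -188 and TATA letters at -32 to -27. Windows were found for 8 of the 10 genes. These letters were chosen with the expression results known and are a description of the sequences only.

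Levels are given as CPM, the reads assigned to a gene relative to the size of its library, after scaling between libraries with TMM. Reads of the 3′ kit come from transcript ends and are not divided by length, so levels are compared between libraries and not between genes. Total counts assigned to genes ran from 1522668 to 2826735 per library, with a median of 1935856. A gene was called changed when its Benjamini-Hochberg adjusted p over all 19970 genes was under 0.01 and its log2 fold change was beyond 0.58, in edgeR's quasi-likelihood test. Where cell type composition is mentioned, it rests on summed marker lists. Markers of neurons were high in every library, from 3622 to 7608 CPM summed over 5 genes, and differed between MCAO and sham at the late times, as given with the other marker lists.

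**Figure D1:**
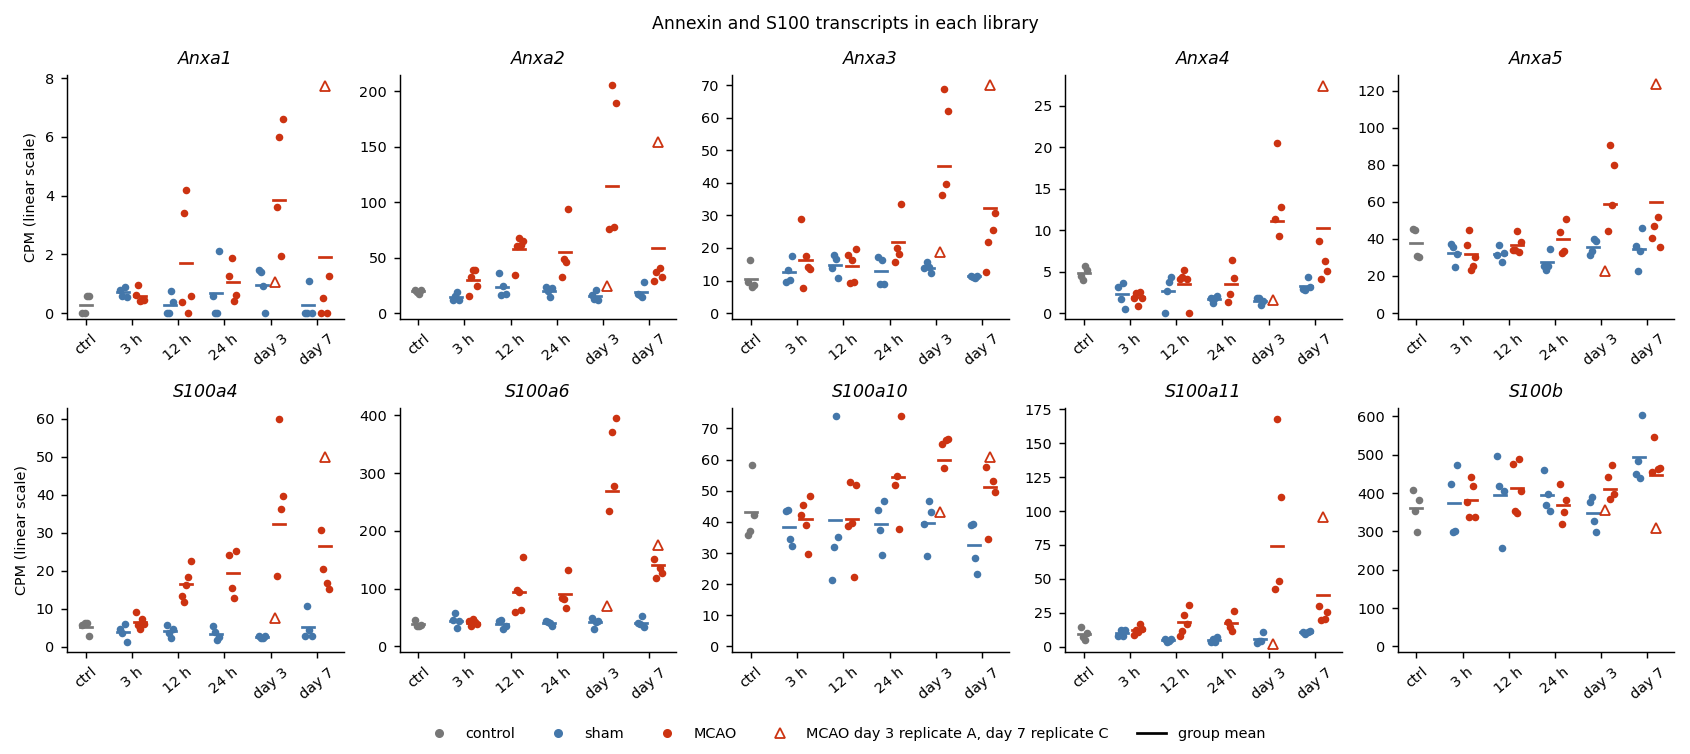
Level of each gene in each of the 48 libraries (y axis, CPM, linear scale, own range per gene) by time after surgery (x axis). Points are libraries, bars are group means, and triangles mark MCAO day 3 replicate A and MCAO day 7 replicate C. S100a4 and S100a6 MCAO libraries lie above the shams from 12 h on, and S100b groups overlap at every time.

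S100a4, which binds the heavy chain of non-muscle myosin and is linked to cell motility, was the member called at the most times, at 12 h, 24 h, day 3 and day 7. In control libraries its level was 5.58, 6.18, 6.21 and 2.85 CPM. At 3 h the shams read 4.75, 3.45, 5.83 and 1.09 CPM and the MCAO libraries 9.04, 5.67, 4.61, 7.32 and 5.92 CPM, so the groups overlapped. At 12 h the shams read 5.59, 3.65, 2.22 and 4.68 CPM and the MCAO libraries 13.3, 11.7, 16.2, 18.2 and 22.6 CPM. The 12 h groups were fully separate. At 24 h the shams read 5.34, 3.79, 1.83 and 2.62 CPM against 24.2, 15.4, 12.7 and 25.1 CPM after MCAO. At day 3 the shams read 2.90, 2.31, 2.34 and 2.81 CPM against 7.47, 18.5, 59.9, 36.1 and 39.7 CPM. Replicate A was the lowest of the day 3 MCAO libraries, although still above every sham. The shams at day 7 read 2.86, 10.7, 4.36 and 2.74 CPM against 30.6, 20.4, 50, 16.8 and 15.0 CPM, again with no overlap.

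The log2 fold change of S100a4 over sham was 0.72 ± 0.48 (SE) at 3 h, with an adjusted p of 0.727. It was 2.02 ± 0.45 at 12 h (adjusted p = 0.00934), 2.49 ± 0.49 at 24 h (0.00649), 3.61 ± 0.46 at day 3 (4.64e-07) and 2.32 ± 0.43 at day 7 (0.000369). In plain folds these are 4.07, 5.61, 12.2 and 5.0. The 12 h and 24 h calls sat just under the threshold. With a single library of that time left out, the 12 h call was lost in 8 of 9 fits and the 24 h call in 6 of 8. The day 3 and day 7 calls held with every library left out in turn. Of the last 300 bases of S100a4 transcripts, 253 of 463 stretches of 50 bases also occur in the overlapping gene model Gm42674, which has 0 counts, and reads in such a stretch could have been set aside as ambiguous.

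S100a6, also called calcyclin, binds the ubiquitin ligase adaptor CacyBP and several annexins. It lies 9.1 kb beyond S100a4 on chromosome 3 and was called at 12 h, day 3 and day 7. Control libraries read 45.2, 35.4, 35.0 and 37.1 CPM. At 3 h the shams read 45.1, 58.1, 31.8 and 44.7 CPM and the MCAO libraries 44.0, 35.4, 47.0, 42.2 and 38.7 CPM. At 3 h the ranges lay on top of each other. At 12 h the shams read 43.6, 46.4, 30.7 and 34.7 CPM against 59.7, 98.5, 94.9, 63.5 and 154.2 CPM. At 24 h they read 43.9, 41.7, 40.9 and 35.1 CPM against 84.5, 81.3, 66.1 and 132.6 CPM. MCAO and sham were separate at both times. At day 3 the shams read 50, 30.9, 42.0 and 43.6 CPM against 70.5, 234.5, 370.6, 278.3 and 394.4 CPM. At day 7 they read 41.2, 38.3, 52.3 and 33.8 CPM against 151.2, 118.6, 175.5, 136.3 and 126.5 CPM. The day 7 libraries were closely spaced, with a mean of 141.6 ± 22.5 CPM (SD, n = 5), whereas day 3 spread over 269.7 ± 129.2 CPM.

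For S100a6 the log2 fold change over sham was -0.11 ± 0.27 at 3 h, 1.28 ± 0.27 at 12 h (adjusted p = 0.00786), 1.17 ± 0.29 at 24 h (0.0610), 2.69 ± 0.28 at day 3 (8.19e-09) and 1.78 ± 0.28 at day 7 (3.70e-05). At 24 h it stayed above the threshold of the test although no MCAO library reached down to a sham value. As with S100a4, the 12 h call was lost in most fits that left out a library of that time.

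S100a11, a partner of Anxa1 and Anxa2 in membrane repair, had the largest day 3 effect of the 10 genes. Control libraries read 14.5, 7.31, 5.08 and 9.71 CPM. At 3 h the shams ran from 7.62 to 12.5 CPM and the MCAO libraries from 8.44 to 16.4 CPM. At 12 h the shams read 5.59, 3.13, 4.07 and 5.46 CPM against 7.79, 11.2, 22.9, 16.5 and 31.0 CPM. The lowest 12 h MCAO library was thus only narrowly above the shams. At 24 h the shams read 3.56, 5.69, 3.05 and 6.82 CPM against 17.8, 14.5, 11.4 and 26.3 CPM. The shams at day 3 read 2.90, 4.16, 4.2 and 10.8 CPM against 1.60, 42.5, 167.8, 48.3 and 110.2 CPM. Replicate A held 3 reads of S100a11 and fell below every sham, while the other 4 libraries exceeded all of them. At day 7 the shams read 10.9, 9.33, 10.4 and 11.4 CPM against 30.0, 19.3, 95.8, 20.1 and 25.7 CPM, with replicate C far above the rest.

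The log2 fold change of S100a11 over sham was 0.30 ± 0.56 at 3 h, 1.93 ± 0.60 at 12 h (adjusted p = 0.0939), 1.83 ± 0.64 at 24 h (0.302), 3.76 ± 0.57 at day 3 (9.91e-06) and 1.85 ± 0.53 at day 7 (0.020). Its only call over sham was therefore at day 3, a 13.6-fold difference. With only the groups compared in the fit, that call was lost (3.74 ± 0.79, adjusted p = 0.0117). Of the last 300 bases of its transcripts, 53 of 251 stretches of 50 bases also occur in Gm12854, which has 4 counts in all libraries.

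Anxa2, the annexin that binds plasminogen and tissue plasminogen activator together with S100a10, rose at day 3 only by the threshold used. Control libraries read 21.2, 18.6, 17.5 and 20.6 CPM. At 3 h the shams read 11.5, 15.6, 19.3 and 12.0 CPM against 15.1, 32.1, 39.0, 39.2 and 24.6 CPM. All 3 h MCAO libraries but replicate A lay above the shams, and the log2 fold change of 1.05 ± 0.44 had an adjusted p of 0.480. At 12 h the shams read 36.3, 16.2, 24.8 and 16.8 CPM against 34.5, 60.2, 67.8, 61.8 and 64.9 CPM. At 24 h they read 23.8, 20.2, 14.6 and 22.6 CPM against 32.3, 49.1, 46.2 and 93.5 CPM. The 24 h groups were separate, unlike those of 12 h. The shams at day 3 read 16.7, 12.9, 20.6 and 11.7 CPM against 24.6, 75.9, 205.3, 77.2 and 189.1 CPM. At day 7 they read 17.2, 16.3, 14.2 and 28.3 CPM against 28.9, 36.6, 154.1, 40.8 and 32.6 CPM. The lowest day 7 MCAO library was next to the highest sham and replicate C stood alone at the top.

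The Anxa2 log2 fold change was 1.3 ± 0.41 at 12 h (adjusted p = 0.0998), 1.43 ± 0.44 at 24 h (0.204), 2.88 ± 0.43 at day 3 (8.31e-06) and 1.61 ± 0.42 at day 7 (0.0107). The day 7 value missed the threshold narrowly in edgeR and passed it in DESeq2.

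Anxa3, an annexin found in microglia and myeloid cells, was called at day 3 and day 7. Control libraries ran from 7.90 to 16.3 CPM. At day 3 the shams read 13.8, 15.7, 14 and 12.2 CPM against 18.7, 36.1, 68.9, 39.5 and 62.1 CPM. The shams at day 7 read 11.4, 11.2, 10.9 and 11.4 CPM against 12.7, 21.9, 70.2, 25.4 and 30.7 CPM. MCAO and sham were separate at both times, but at day 7 replicate A, at 12.7 CPM, was close to the shams. The log2 fold changes were 0.37 ± 0.37 at 3 h, -0.03 ± 0.36 at 12 h and 0.75 ± 0.38 at 24 h, none of them called. They were 1.69 ± 0.35 at day 3 (adjusted p = 0.000773) and 1.51 ± 0.36 at day 7 (0.00550). The day 7 value was no longer called without MCAO replicate C or without any single sham.

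Anxa4, a membrane-binding annexin of secretory and epithelial cells, was near the detection limit of these libraries outside day 3 and day 7. Its reads totalled 426 over 48 libraries. Day 3 shams read 1.81, 1.85, 0.934 and 1.41 CPM, from 2 to 5 reads, and MCAO libraries 1.60, 11.3, 20.5, 9.28 and 12.8 CPM, from 3 to 41 reads. Replicate A was inside the sham range and the other 4 were above it. The day 3 log2 fold change was 2.83 ± 0.62 (adjusted p = 0.00146), and the call was lost without MCAO replicate C, without sham replicate C, or with only the groups compared in the fit. At day 7 the shams ran from 2.8 to 4.36 CPM and the MCAO libraries read 8.65, 4.07, 27.4, 6.24 and 5.01 CPM, for a log2 fold change of 1.61 ± 0.57 (adjusted p = 0.0649). Control libraries, at 3.94 to 5.64 CPM, were above every day 3 sham, so that Anxa4 was not called at day 3 against control (1.20 ± 0.55, adjusted p = 0.199).

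Anxa5, which binds phosphatidylserine exposed on dying cells and is the reagent used to stain them, was not called at any time. Its control libraries ran from 30.3 to 45.2 CPM. Day 3 shams read 31.2, 33.2, 39.7 and 38.9 CPM against 22.4, 44.3, 90.9, 58.1 and 79.8 CPM after MCAO. Day 3 replicate A was the lowest of all 9 libraries and the other 4 MCAO libraries were above every sham. The log2 fold change was 0.73 ± 0.27 at day 3 (adjusted p = 0.0923) and 0.78 ± 0.28 at day 7 (0.0648), where 3 of 5 MCAO libraries lay above the shams. Without day 3 replicate A the day 3 value passed the threshold.

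Anxa1, the glucocorticoid-induced ligand of formyl peptide receptors, was too rare here for a fold to be useful. It had 116 reads over 48 libraries. Control libraries held 0, 0, 1 and 1 reads. Day 3 shams held 4, 3, 2 and 0 reads and day 3 MCAO libraries 2, 8, 12, 4 and 15 reads. At day 7 the shams held 0, 0, 2 and 0 reads and the MCAO libraries 0, 1, 13, 0 and 2 reads, so most of the day 7 reads came from replicate C. At 12 h, MCAO replicates B and C held 7 and 8 reads while the other 3 held 1, 0 and 1. No comparison of Anxa1 with sham was called, with adjusted p from 0.151 to 0.990. Day 3 against control was not called either, with an adjusted p of 0.0390, and it was called (0.00775) when day 3 replicate A and day 7 replicate C were left out, a choice made after seeing the data.

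S100a10, the Anxa2 partner that has lost calcium binding, was not called at any time. At day 3 the shams read 39.2, 29.1, 46.7 and 43.1 CPM and the MCAO libraries 43.2, 65.1, 57.4, 66.4 and 66.5 CPM. At day 7 they read 38.9, 39.2, 28.4 and 23.3 CPM against 57.7, 34.6, 60.7, 53.3 and 49.5 CPM. In each case 4 of 5 MCAO libraries were above every sham. The log2 fold change was 0.60 ± 0.24 at day 3 (adjusted p = 0.126) and 0.66 ± 0.25 at day 7 (0.0891), and between 0.00 and 0.46 at the earlier times. The 95% interval at day 3, taken as 1.96 SE to each side, ran from 0.12 to 1.07 on the log2 scale. Control libraries, from 35.7 to 58.1 CPM, reached into the day 3 MCAO range.

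S100b, the astrocyte S100 protein and a ligand of the receptor Ager, showed no called difference in any comparison. Group means lay between 347.9 CPM in day 3 shams and 494.0 CPM in day 7 shams, with 360.5 ± 46.9 CPM (SD, n = 4) in control. Day 3 MCAO libraries read 357, 441, 384, 473 and 397 CPM against 376, 390, 328 and 298 CPM in shams. At day 7 they read 456, 547, 308, 464 and 465 CPM against 449, 483, 440 and 604 CPM, where replicate C was the lowest of all 9 libraries. The log2 fold change over sham ran from -0.14 ± 0.16 at day 7 to 0.24 ± 0.16 at day 3, with a 95% interval of -0.08 to 0.55 for the latter. On scaling to spike-in RNA, which put the median of all genes at -0.10 at 3 h, -0.09 at 12 h, 0.14 at 24 h and -0.22 at day 3, the sign of S100b flipped at these times, and it moved by about as much as that median. S100b overlaps Dip2a, which lies on the opposite strand and has 3577 counts in all. Whether counting used strand was not given in the sources used here, and without it reads in the overlap cannot be told apart.

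**Figure D2:**
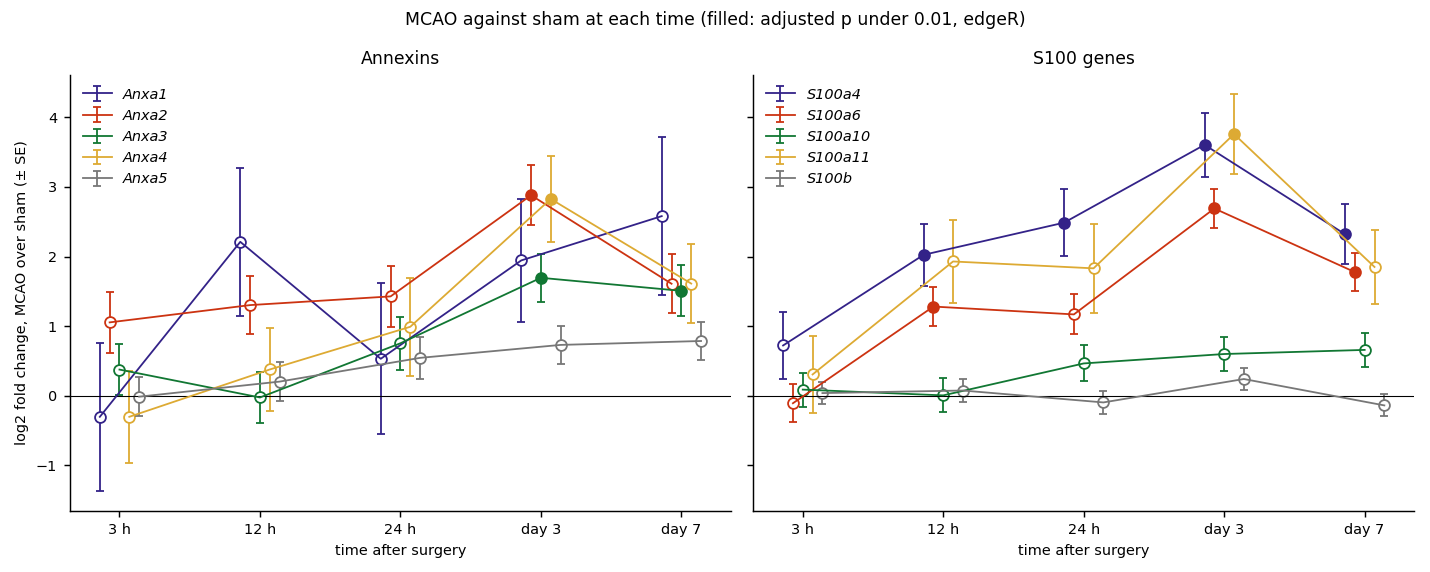
Log2 fold change of MCAO over the same-time sham (y axis, ± SE from edgeR) at each time (x axis), annexins on the left and S100 genes on the right; filled points had an adjusted p under 0.01. S100a4, S100a6, S100a11, Anxa2 and Anxa4 have their highest values at day 3, between 2.69 and 3.76, and S100b stays between -0.14 and 0.24.

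Counted together, 0 of the 10 genes were called higher at 3 h, where 0.0901% of all genes tested were called higher. The count was 2 of 10 at 12 h against 0.346% of all genes, 1 of 10 at 24 h against 0.0801%, 6 of 10 at day 3 against 3.76% and 3 of 10 at day 7 against 2.07%. No member was called lower at any time. Because the members were chosen with earlier results of these data known, these counts are a description and not an independent test. The median log2 fold change of the 10 was 0.06, 0.83, 0.87, 2.32 and 1.61 from 3 h to day 7, beside medians of all genes between 0.00 and 0.06. All MCAO libraries lay above all shams for 3 members at 12 h, 4 at 24 h, 4 at day 3 and 5 at day 7, and the same held for 2.03%, 3.73%, 4.33% and 5.38% of all genes. Scaled to the ERCC spike-ins, calls over sham among all genes split into 463 higher and 131 lower at day 3 where TMM gave 750 and 52, and into 403 and 86 at day 7 where TMM gave 413 and 285. At 3 h the split was 9 and 5 against 18 and 4, and for day 3 against control it was 349 and 345 against 561 and 58. The member calls at day 3 were 6 under both scalings.

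Against control, 0 of 10 members were called higher at 24 h, where 0.12% of all genes were. At day 3 the called members were Anxa2, Anxa3, S100a4, S100a6 and S100a11, 5 of 10 beside 2.81% of all genes. At day 7 they were Anxa3, S100a4 and S100a6, 3 of 10 beside 1.09%. Log2 fold changes over control at day 3 were 2.55 ± 0.43 for Anxa2, 2.09 ± 0.37 for Anxa3, 2.62 ± 0.43 for S100a4, 2.82 ± 0.29 for S100a6 and 3.01 ± 0.55 for S100a11. These comparisons and those with sham share the MCAO libraries. Control replicate A summed to 496.6 CPM over choroid plexus and ependyma genes (Ttr, Folr1, Kl, Foxj1, Tmem72), against 6.21 to 7.31 CPM in the other controls. Without control replicate A the day 3 count was still 5, and Anxa3 was lost at day 7, as it was without control replicate C or D. Sham surgery by itself gave 0 calls among the members when the mean of the 5 sham groups was set against control, where edgeR called 0.02% of all genes in either direction. At an unadjusted p under 0.05, 1 of 10 members and 953 of all genes passed, and that member was Anxa4, with a log2 difference of -1.07 ± 0.48 and an adjusted p of 0.987.

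The change of the MCAO effect between neighbouring times was tested as an interaction, and 0 of 10 members were called at any step in edgeR. Of all genes, 0.01% were called from 3 h to 12 h, 0.01% from 12 h to 24 h, 0.01% from 24 h to day 3 and 0% from day 3 to day 7. At an unadjusted p under 0.05 the members numbered 1, 0, 3 and 4 at those steps, beside 1421, 1015, 1762 and 3231 of all 19970 genes. From 24 h to day 3 these were S100a6 (1.52 ± 0.39, adjusted p = 0.175), S100a11 (1.93 ± 0.88, 0.539) and Anxa2 (1.45 ± 0.61, 0.492). From day 3 to day 7 they were S100a4 (-1.29 ± 0.64, adjusted p = 0.307), S100a6 (-0.92 ± 0.38, 0.221), S100a11 (-1.91 ± 0.77, 0.215) and Anxa2 (-1.27 ± 0.59, 0.274).

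The libraries of a group differed widely, and the same libraries were high or low for most members. MCAO day 3 replicate A was the lowest of its group for Anxa1, Anxa2, Anxa3, Anxa4, Anxa5, S100a4, S100a6, S100a10, S100a11 and S100b. MCAO day 7 replicate C was the highest of its group for all members but S100b. Marker lists moved with these libraries. The peripheral myeloid list (Ccr2, Ly6c2, Lyz2, Plac8, Ms4a7, Arg1) summed to 23.5 CPM in day 3 replicate A and to 242.2, 1032.0, 291.0 and 875.2 CPM in replicates B to E. Over 5 microglia genes (P2ry12, Tmem119, Cx3cr1, Csf1r, Aif1) the sum was 453.8 CPM in replicate A and 743.8, 1320.0, 940.0 and 1206.0 CPM in the others, against 186.9 to 283.1 CPM in shams. Replicates C and E were thus highest for both lists, as they were for Anxa2, Anxa3, Anxa4, Anxa5, S100a4, S100a6 and S100a11. This order was not particular to these lists. The endothelial list (Cldn5, Pecam1, Cdh5, Flt1, Kdr) summed to 497.9 and 449.5 CPM in replicates C and E and to 186.8, 309.1 and 270.5 CPM in A, B and D. Replicates C and E were also highest for the granulocyte, fibroblast and pericyte lists, while the oligodendrocyte list was highest in replicate D.

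At day 7 the peripheral myeloid list summed to 4088.0 CPM in replicate C and to 100.4 to 186.8 CPM in the other 4 libraries. The list of fibroblast and meningeal genes (Col1a1, Col1a2, Col3a1, Dcn, Lum, Pdgfra) summed to 5491.0 CPM in replicate C and to 169.6 to 505.7 CPM in the others. Pdgfra, a gene of this list, is used in the study as a marker of oligodendrocyte precursor cells, so the list is not specific to fibroblasts. Day 7 shams ran from 7.63 to 11.4 CPM for the myeloid list and from 42.0 to 93.8 CPM for the fibroblast list. Of 6 genes each over sham, 4 myeloid and 3 fibroblast genes were called higher at day 3, and 3 and 5 at day 7. Of the 5 microglia genes, 3 were called higher at day 3 and 1 at day 7, and at day 7 their sum was 1502.0 CPM in replicate C, 448.3 to 693.9 CPM in the other MCAO libraries and 278.6 to 445.7 CPM in shams. The neuron list ran the other way. It summed to 6478, 5732, 4280, 4787 and 4193 CPM in day 3 MCAO replicates A to E against 6458 to 7589 CPM in shams, and at day 7 to 3622 CPM in replicate C and 5231 to 6232 CPM in the others against 6182 to 6988 CPM. Of its 5 genes, 1 was called lower at each of these times. At 12 h the granulocyte list, which includes S100a8 and S100a9, summed to 11.9 to 1709.0 CPM over 5 MCAO libraries, with replicate E highest, and replicate E was also the highest 12 h library for S100a4, S100a6 and S100a11. The astrocyte list summed to 3177 to 4694 CPM at day 3 after MCAO and 4597 to 5027 CPM in shams, while 1 of its 6 genes was called higher, 0 were called lower and the median log2 fold change was 0.13. At day 7 its sum was 3396 CPM in replicate C and 4798 to 5088 CPM in the other MCAO libraries against 4037 to 5104 CPM in shams, with 2 genes called higher and a median of 0.31. The T cell list had 3 of 5 genes at 0 in the day 3 MCAO libraries and also 3 of 5 at 0 in the day 3 shams. The part of these cell types in the members' levels was not tested.

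Leaving out day 3 replicate A and day 7 replicate C together, a choice made after seeing the data, gave 7 of 10 members called higher at day 3, where 6.01% of all genes were, and 2 of 10 at day 7, where 0.966% were. The day 3 log2 fold changes then were 3.86 ± 0.40 for S100a4, 2.94 ± 0.22 for S100a6, 4.08 ± 0.39 for S100a11, 3.14 ± 0.32 for Anxa2 and 0.94 ± 0.21 for Anxa5. At day 7 the values of S100a4 (1.96 ± 0.38) and S100a6 (1.69 ± 0.22) stayed called, and Anxa2 (0.86 ± 0.32), Anxa3 (1.01 ± 0.32), Anxa4 (0.84 ± 0.51) and S100a11 (1.17 ± 0.38) were not. Since replicate A was the lowest day 3 library and replicate C the highest day 7 library for these genes, leaving them out raises day 3 and lowers day 7 by construction. The fall from day 3 to day 7 was then -2.28 for Anxa2, -2.91 for S100a11, -1.25 for S100a6 and -1.90 for S100a4 on the log2 scale. Anxa2 and S100a11 passed the threshold for this step in that fit. No conclusion is drawn from these calls, since the choice of libraries widened the step.

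**Figure D3:**
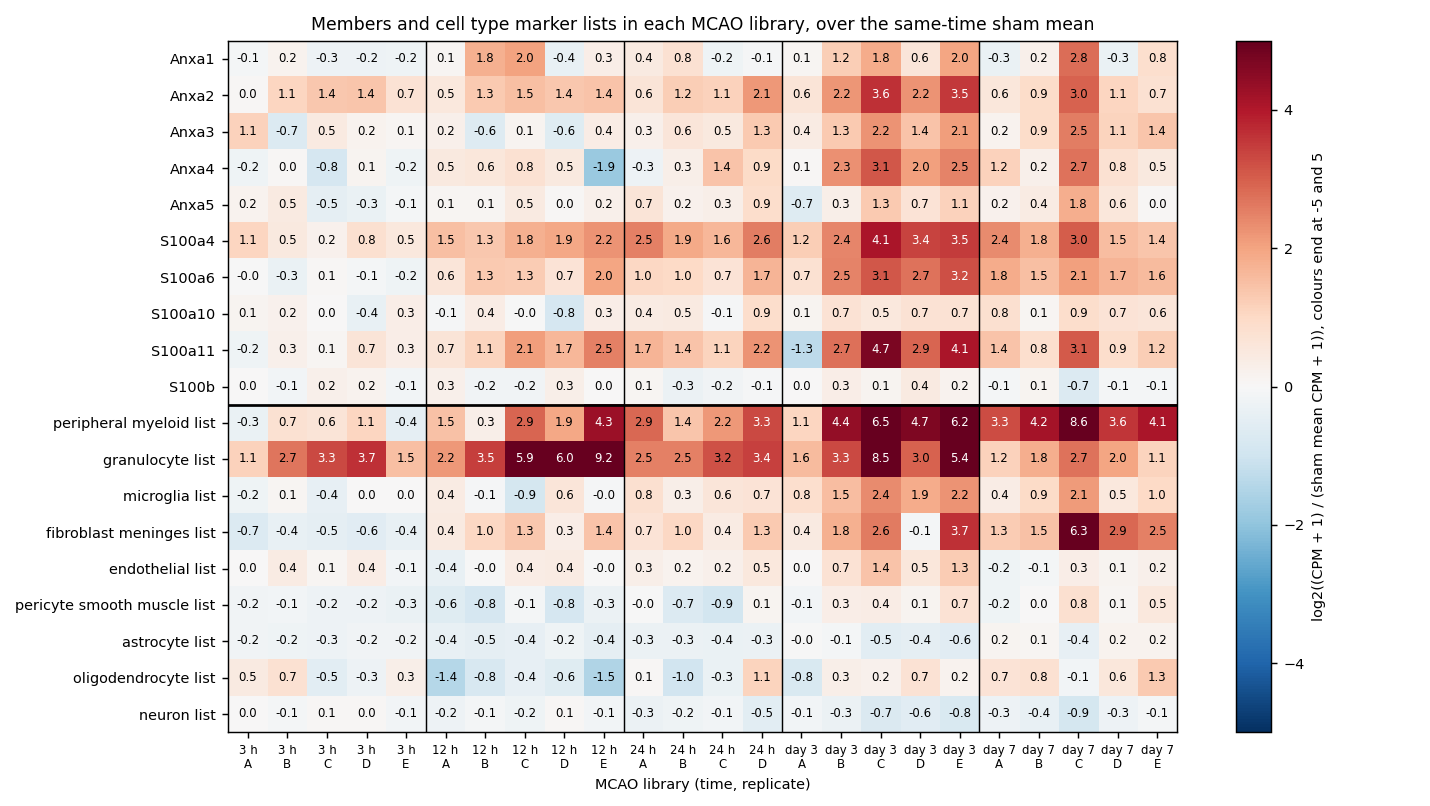
Level of each member and summed level of 9 cell type marker lists in the 24 MCAO libraries, each as log2 of (CPM + 1) over the same-time sham mean (CPM + 1), with colours ending at -5 and 5. Day 3 replicate A is under 1 for all members but S100a4 and is lowest for the myeloid list among day 3 libraries, and day 7 replicate C is highest for the myeloid and fibroblast lists.

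The S100 genes of chromosome 3 had unequal values at day 3. S100a4 (GRCm38 chr3:90603771-90606045) and S100a6 (chr3:90612882-90624181) lie close together, with S100a5 between them, both on the plus strand. S100a11 (chr3:93520488-93526287) and S100a10 (chr3:93555080-93564643) lie 2907.6 and 2942.2 kb further along. These neighbours had day 3 log2 fold changes of 3.76 and 0.60. S100a3, whose start lies 52.3 kb before that of S100a6, had a day 3 value of 0.23 with 160 reads over all libraries. S100a5 had 2 reads in all and was not tested. Of the genes that are no members, S100a13 (1.48 ± 0.28) and S100a16 (1.64 ± 0.20) were called higher at day 3, with adjusted p of 0.000222 and 9.90e-08, and S100a1 had 0.85 without a call. S100a8 and S100a9, the granulocyte pair, read 2.67 to 328 and 1.60 to 246 CPM at day 3 after MCAO, against 0 to 1.39 and 0 to 0.923 CPM in shams. The annexins lie on chromosomes 19, 9, 5, 6 and 3 for Anxa1 to Anxa5, and S100b is on chromosome 10.

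**Figure D4:**
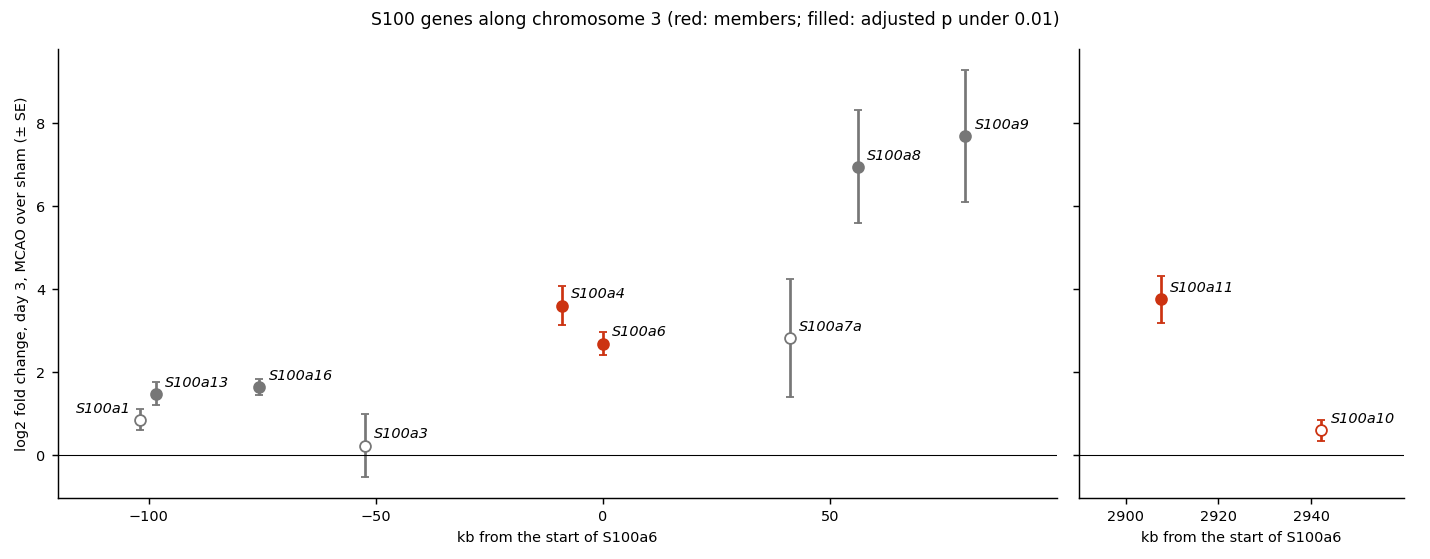
Day 3 log2 fold change of MCAO over sham (y axis, ± SE) for the tested S100 genes of chromosome 3 by distance of their start from that of S100a6 (x axis, kb, with a gap between the panels). Red points are members, grey points other S100 genes, and filled points had an adjusted p under 0.01; S100a10 is at 0.60 and its neighbour S100a11 at 3.76.

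In the rest of both families, 11 of 18 genes passed the filter on low counts. Of these, 2 were called higher at 12 h and 4 at day 3, namely S100a8 and S100a9 at both times with S100a13 and S100a16 at day 3, and 0 at 3 h, 24 h and day 7, where the shares of all genes called higher were 0.346% at 12 h and 3.76% at day 3. No gene of this list was called lower. The list's median log2 fold change was 1.11 at day 3 and 0.52 at day 7. Anxa6, Anxa7, Anxa8 and Anxa9 were tested and not called at any time.

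Of 18 binding partners and receptors of the members, 17 were tested, with 2 called higher at day 3, 2 at day 7, and 0 at the earlier times, beside 3.76% and 2.07% of all genes at day 3 and day 7. At day 3 these were Myh9 (1.61 ± 0.29, adjusted p = 0.000127), the non-muscle myosin heavy chain bound by S100a4, and Myof (1.93 ± 0.51, 0.00977), a ferlin of membrane repair. At day 7 they were Myof (2.08 ± 0.52, 0.00745) and Plat (2.35 ± 0.56, 0.00476), the tissue plasminogen activator that Anxa2 binds. Day 7 MCAO libraries ran from 6.11 to 85.7 CPM for Myof with a median of 15.7 CPM, against at most 8.01 CPM in shams. For Plat the day 7 shams were low, with a mean of 2.99 CPM. The other sham means ran from 7.23 to 11.8 CPM, control had 8.74 CPM and day 7 MCAO had 15.2 CPM. Myh9, Myof and Plat were named after their values were seen, since none was called at 3 or more times. Ahnak, Cacybp, Ager, Fpr1, Fpr2 and Tlr4 were among the partners tested and were not called over sham. The median of the list was 0.88 at day 3 and 0.82 at day 7.

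For each called member, the gene outside the list with the closest pattern was sought by the root mean square difference over the 5 log2 fold changes, among genes with a mean of at least 5 CPM. The nearest was Cd93 for Anxa2 (a difference of 0.15), Myl12a for Anxa3 (0.12), Nckap1l for Anxa4 (0.23), Ctsc for S100a4 (0.26), Cd63-ps for S100a6 (0.17) and Clic1 for S100a11 (0.14). Cd93 followed Anxa2 with 0.89, 1.41, 1.3, 2.72 and 1.79 from 3 h to day 7. Clic1 followed S100a11 with 0.38, 1.95, 2.05, 3.84 and 1.67. Cd63-ps is a pseudogene of Cd63, and its reads may be shared with the parent gene.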

How the data were processed

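RNA for the 48 libraries of dissected brain tissue was prepared by the authors with the QuantSeq 3′ FWD kit with ERCC spike-ins. They trimmed reads, removed ribosomal reads, aligned with STAR 2.5.2b to GRCm38 and used HTSeq (union mode, Gencode vM8) for counting. What the authors deposited are raw read counts per gene, and no column of per-sample values was left without a sample. A median of 33.5% of reads had no unique alignment, 23.5% had no feature and 0.4% were ambiguous, and such rows stayed out of library sizes. Nothing was pooled, and a deposited variance-stabilised matrix was not used. Groups came from the labels, and p-values measure the spread between libraries so labelled.

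Counts were fitted in edgeR 4.0.16 (R 4.3.3) with TMM scaling and the quasi-likelihood test, in a single fit of 11 groups over genes with more than 10 counts in total. Contrasts, called at an adjusted p under 0.01 and a log2 fold change beyond 0.58, were MCAO against sham, MCAO against control, shams against control and the steps between times. SE is the log2 fold change divided by the square root of F. Replicate letters did not pair the samples, since correlations of deviations ran from -0.26 to 0.15. Alternatives were DESeq2 1.42.0 (size factors alone, or the whole test), ERCC scaling, other filters, only the groups compared, a replicate block and leaving out each library, with the dispersion trend kept. The step was tested on simulated data. Of the microglia markers 1 gene is not reported here, and sums and counts are over the other 5. Members, lists, markers and motifs were chosen with earlier results of these data known. Named genes were all members, list genes called at 3 or more times, and the nearest gene by pattern. Symbols and coordinates came from Gencode vM21 on GRCm38 and promoters from RefSeq. Counting error is the floor on precision for the rarest genes.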

Additional observations from a re-analysis of the deposited data

Results flagged for a closer look

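Each member was examined in each of the 11 groups for a library far from the rest by Dixon's test. Of these 110 sets of 4 or 5 libraries, 9 held such a library. Chance alone gives about 5% of sets if they are independent, but these sets share the same libraries. The count therefore cannot be set against that share. MCAO day 7 replicate C was far above its group for Anxa1 (7.73 CPM, next highest 1.25), Anxa2 (154.1 CPM, next 40.8), Anxa4 (27.4 CPM, next 8.65), Anxa5 (123.7 CPM, next 51.8) and S100a11 (95.8 CPM, next 30.0). The same library held the highest sums of the myeloid and fibroblast marker lists of its group, and their part was not tested.

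At 12 h after MCAO, replicate A was far below the others for Anxa2 (34.5 CPM, next 60.2) and replicate E for Anxa4 (0 CPM, next 4.08). Among the shams, day 3 replicate D was far above the others for S100a11 (10.8 CPM, next 4.20), and day 7 replicate C was the only library of its group with reads of Anxa1 (1.09 CPM, from 2 reads). No difference between the MCAO effects of neighbouring times was called for a member in the fit of all libraries.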

How the results depend on the processing

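Of 268 counts of called members recomputed under other settings, 236 stayed within 1.5 times the reported count, and of 1389 recomputed log2 fold changes 26 changed sign, none of them of a called value. At 12 h, where 2 members were called, the count was 1 with ERCC scaling, 0 with only the groups compared in the fit, 0 with the replicate block and 0 to 1 when a library was left out. At 24 h the single call became 2 without a filter on low counts and 0 to 1 with a library left out, lost without MCAO replicate A or D or without any of the 4 shams. At day 7 the 3 calls became 5 without a filter. With a library left out, day 3 over sham ranged from 5 to 7, Anxa4 being lost without MCAO or sham replicate C and Anxa5 gained without MCAO replicate A. With only the groups compared it was 4, without Anxa4 and S100a11, and day 7 was 2, without Anxa3. Day 7 ranged from 2 to 4, Anxa3 being lost without MCAO replicate C or any sham and Anxa2 gained without any other MCAO library. Against control, 24 h went from 0 to 2 in DESeq2, 2 without a filter and 3 with only the groups compared. Day 3 against control went from 5 to 3 (S100a4 and S100a11 lost) with only the groups compared, and day 7 from 3 to 5 without a filter and to 1 to 3 with a library left out, 1 being without control replicate D, which lost Anxa3 and S100a4. The step from 24 h to day 3 had 0 to 1 calls, the call being S100a6 without MCAO day 3 replicate A. With day 3 A and day 7 C both absent, counts were 4 at 12 h, 2 at 24 h and 3 at 24 h against control. They were 1 for the step to day 3 (S100a6) and 2 for the step to day 7 (Anxa2 and S100a11). In that fit 6.01% of all genes were called higher over sham at day 3 and 0.966% at day 7. Shares of all genes are not given for the other recomputed counts, so those cannot be set against all genes. Leaving out day 3 A and day 7 C widens both steps by construction. The other causes were not tested.

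The replicate letters did not pair the samples. The replicate block left 6 calls at day 3 and 2 of 3 at day 7, without Anxa3, and turned S100a10 at 12 h to -0.028. ERCC scaling put the median of all genes over sham at -0.10 at 3 h, -0.09 at 12 h, 0.14 at 24 h, -0.22 at day 3 and 0.14 at day 7. With that shift of all genes it turned S100a10 to -0.004 at 3 h and -0.121 at 12 h, and S100b to -0.065 at 3 h, -0.035 at 12 h, 0.026 at 24 h and -0.011 at day 3. With a library left out, uncalled values crossed zero over these ranges: Anxa5 at 3 h from -0.171 to 0.083, S100a6 at 3 h from -0.246 to 0.034, S100b at 3 h from -0.058 to 0.169, Anxa3 at 12 h from -0.155 to 0.099, S100a10 at 12 h from -0.201 to 0.475 and S100b at 12 h from -0.086 to 0.202. Depth limits Anxa1 and Anxa4 most, the genes with the fewest reads (at most 15 and 46 in a library).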
